A study of Mus musculus with 2 samples.

Results

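The MYC, MAX and MXD network is a group of 10 transcription factor genes, described here in 2 mouse bone marrow cultures that expressed different forms of EVI1. The genes were taken by symbol (Myc, Mycn, Mycl, Max, Mxd1, Mxd3, Mxd4, Mxi1, Mnt and Mlx) and matched by Ensembl ID, and all 10 were found among the 55487 genes of the count table. In both cultures Myc was the most abundant MYC paralogue, Mycn came next and Mycl had 0 reads. The difference between the cultures lay in the repressors Mxd1 and Mxd4 and in Mycn, which were lower in EVI1+18, whereas Myc and Max were close to equal.

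The cells were lineage-negative marrow cells of C57BL/6 mice, a fraction enriched for stem and progenitor cells. The EVI1+18 culture had been infected with the retrovirus pMYs-IG encoding HA-tagged EVI1+18, a product of aberrant splicing of EVI1, and the EVI1-WT culture with the same retrovirus encoding HA-tagged wild-type EVI1. EVI1 is a zinc finger transcription factor of the Mecom locus that is overexpressed in a class of aggressive leukaemias. Infected cells were sorted by GFP 3 days after infection, 10000 cells were plated in methylcellulose colony medium, and RNA was taken after about 3 weeks. The ages of the mice and the number pooled are not stated, both groups overexpressed an EVI1 form from a retroviral vector, and cells without either form were not analysed here. There was 1 library per form, which gives no replicate check and no test. Differences between the libraries cannot be told apart from differences between cultures.

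MYC proteins activate genes as dimers with MAX, which bind the E-box sequence through a basic helix-loop-helix leucine zipper domain. MXD proteins, MXI1 and MNT compete for MAX and bring SIN3 and histone deacetylase complexes to the same sites, so the network is often described as a balance between MYC-MAX and MXD-MAX dimers. In blood, MYC and MYCN support the growth and survival of stem and progenitor cells, and MXD1 is known for its rise when myeloid cells mature. MLX is a MAX-like partner of MondoA (Mlxip) and ChREBP (Mlxipl) in glucose-responsive transcription, and it also pairs with MXD1, MXD4 and MNT.

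Promoters of Mxd1, Mxd4 and Mycn, the genes that differed most between the libraries, and of Max, the shared partner, are printed because these genes carry the comparison. Each runs from 250 bases before to 50 bases after the annotated start, 5′ to 3′ on the gene's strand, from RefSeq on GRCm38.p6. Capitals mark every match, on either strand, to 4 motifs. The first is the E-box, CACGTG, to which MYC and MXD dimers bind. A GC box, GGGCGG, and an E2F motif, TTTNGCGC, were also searched. The last was AAGATAA, of the kind that the zinc fingers of EVI1 bind. The Mxd1 promoter (chr6:86669110-86669409, minus strand), the Mxd4 promoter (chr5:34187661-34187960, minus strand), the Mycn promoter (chr12:12941787-12942086, minus strand) and the Max promoter (chr12:76962199-76962498, minus strand) read as follows.
Mxd1: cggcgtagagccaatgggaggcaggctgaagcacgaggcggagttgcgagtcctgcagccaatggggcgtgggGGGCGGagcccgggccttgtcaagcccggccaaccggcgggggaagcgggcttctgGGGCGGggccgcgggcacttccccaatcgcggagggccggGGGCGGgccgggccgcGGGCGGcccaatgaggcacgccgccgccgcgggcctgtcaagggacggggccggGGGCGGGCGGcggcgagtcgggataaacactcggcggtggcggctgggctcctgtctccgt
Mxd4: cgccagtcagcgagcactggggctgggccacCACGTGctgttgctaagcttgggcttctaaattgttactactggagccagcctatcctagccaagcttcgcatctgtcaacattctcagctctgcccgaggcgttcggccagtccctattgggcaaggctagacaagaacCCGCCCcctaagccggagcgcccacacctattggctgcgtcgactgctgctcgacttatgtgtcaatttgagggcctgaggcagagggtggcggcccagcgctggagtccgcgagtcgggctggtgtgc
Mycn: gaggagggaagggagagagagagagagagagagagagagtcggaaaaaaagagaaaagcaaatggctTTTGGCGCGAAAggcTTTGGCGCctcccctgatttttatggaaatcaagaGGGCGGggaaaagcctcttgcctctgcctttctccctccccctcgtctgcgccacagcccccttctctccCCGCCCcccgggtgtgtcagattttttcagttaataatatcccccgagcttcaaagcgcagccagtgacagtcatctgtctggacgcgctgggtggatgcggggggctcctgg
Max: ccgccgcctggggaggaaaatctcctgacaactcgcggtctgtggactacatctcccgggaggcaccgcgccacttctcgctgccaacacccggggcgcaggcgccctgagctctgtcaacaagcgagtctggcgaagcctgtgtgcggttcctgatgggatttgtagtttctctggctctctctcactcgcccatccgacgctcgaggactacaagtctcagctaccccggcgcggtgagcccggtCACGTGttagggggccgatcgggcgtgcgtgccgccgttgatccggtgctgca

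The RefSeq table held promoters for 9 of the 10 genes, the exception being Myc. An E-box was present in the promoters of 4 of these 9 genes, Max, Mxd4, Mnt and Mlx, against 7.15% of 32817 mouse promoters of the same length. The Mxd4 E-box began 219 bases before the start and that of Max 3 bases before it. The E2F motif occurred in Mycn alone among the 9, with 3 matches, the outermost beginning 183 and 168 bases before the start and 2 of the 3 overlapping each other, against 1.38% of all promoters. The GC box was found in 7 of the 9 genes and in 35.6% of all promoters. These counts are per gene, and Mxi1, with 3 promoters in the table, counts where any holds a match, while the background share is per promoter. Mxd1 had 6 GC boxes and Mxd4 had 1, so these promoters, whose genes differed between the libraries by nearly the same ratio, were unlike in these letters. AAGATAA was in none of the 9 (0), against 3.47% of all promoters. A match describes letters in this window and is neither a binding site nor a cause.

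Total counts were 20981903 for EVI1+18, with 21037 genes detected, and 20480447 for EVI1-WT, with 21013 genes detected. Levels are given as scaled CPM, read counts per 1000000 of a library size scaled by TMM (a method that aligns the bulk of genes between libraries). Between genes they are compared per kilobase of merged exons. Mecom, the locus of the expressed gene, had 209 scaled CPM in EVI1+18 and 180 in EVI1-WT, and these counts separate neither vector from endogenous transcripts nor the splice forms. The cultures differed in cell-type markers. A gene was tested where it reached 1 scaled CPM in either library, and was called where its whole 95% exact counting interval lay beyond 2-fold. Among tested markers, 9 of 10 erythroid genes and 4 of 5 megakaryocyte genes were called higher in EVI1+18, beside 5.05% of all genes tested. Called lower were 6 of 7 mast cell and basophil, 4 of 9 neutrophil and 4 of 4 eosinophil genes, beside 5.10% of all genes. Of 7 lymphoid markers only Il7r passed 1 scaled CPM, and Ms4a1 and Ebf1 had 0 counts in both libraries. The Y-linked gene Eif2s3y had 1 count in EVI1+18 and 2002 in EVI1-WT. The Y-linked genes Ddx3y, with 1626 counts in EVI1+18 and 1545 in EVI1-WT, and Kdm5d, with 590 in EVI1+18 and 614 in EVI1-WT, were close. Uty, also Y-linked, had 498 counts in EVI1+18 and 584 in EVI1-WT, a ratio of 0.796 (0.705 to 0.899). The libraries thus stand apart at Eif2s3y, a gene outside the network, and its part in the values below was not tested. In bulk RNA, fewer cells of a type and less RNA per cell cannot be told apart.

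Myc (ENSMUSG00000022346, GRCm38 chromosome 15, 61985391 to 61990374, plus strand), the founding member of the family and a driver of growth genes, had 3353 counts in EVI1+18 and 2803 in EVI1-WT. That is 156 scaled CPM in EVI1+18 and 140.0 in EVI1-WT. The ratio of EVI1+18 over EVI1-WT was 1.12, with a 95% exact counting interval of 1.06 to 1.17. Myc was therefore slightly higher in EVI1+18 beyond counting error, and far from a 2-fold difference. Pvt1, the long noncoding RNA gene downstream of Myc, named here after its values were seen, had 193 counts in EVI1+18 and 183 in EVI1-WT, a ratio of 0.984 (0.800 to 1.21).

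Mycn (ENSMUSG00000037169, chromosome 12, 12936093 to 12941914, minus strand), which can stand in for MYC in blood progenitors, had 878 counts in EVI1+18 and 1487 in EVI1-WT. Its level was 40.9 scaled CPM in EVI1+18 and 74.2 in EVI1-WT. Mycn was 1.81-fold lower in EVI1+18 (interval 1.67 to 1.97), short of the 2-fold rule, and 9.81% of all tested genes had a lower log2 ratio. It is called at a 1.5-fold rule, as were 9.79% of tested genes. Mycl (ENSMUSG00000028654, chromosome 4, 122995652 to 123002485), the paralogue known from lung tumours and dendritic cells, had 0 counts in both libraries. At this depth 0 reads set an upper limit of 3 counts, equal to 0.140 scaled CPM for EVI1+18 and 0.150 for EVI1-WT.

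Myc held the larger part of MYC-family transcripts in each culture, and more so in EVI1+18. Per kilobase, Myc made up 82.2% of the summed level of the 3 paralogues in EVI1+18 and 69.6% in EVI1-WT, while Mycn made up 17.8% in EVI1+18 and 30.4% in EVI1-WT. On raw counts the Myc share was 79.2% in EVI1+18 (exact binomial interval 78.0 to 80.5%) and 65.3% in EVI1-WT (63.9 to 66.8%). The ratio of Mycn to Myc per kilobase was 0.216 in EVI1+18 and 0.437 in EVI1-WT. It was thus 2.03-fold lower in EVI1+18 (counting interval 1.84 to 2.24), a comparison that does not depend on how the libraries are scaled. The summed level of the paralogues was similar, at 69.9 scaled CPM per kilobase in EVI1+18 and 74.0 in EVI1-WT. On counts scaled by TMM the sum was slightly lower in EVI1+18 beyond counting error, at a ratio of 0.921 (0.882 to 0.961).

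**Figure D1:**
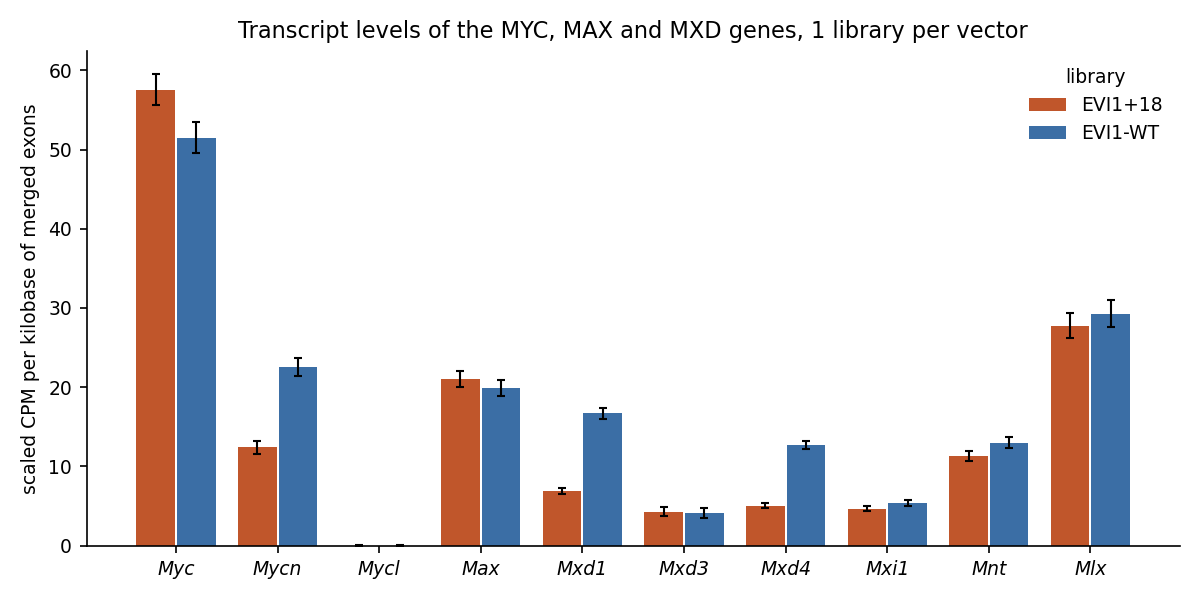
Level of each gene (vertical axis, scaled CPM per kilobase of merged exons) in the EVI1+18 library and the EVI1-WT library, with bars for 1 library each and error bars for 95% Poisson counting intervals. Myc stands highest in both libraries, Mycl is at 0, and the widest gaps are those of Mycn, Mxd1 and Mxd4, each lower in EVI1+18.

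Max (ENSMUSG00000059436, chromosome 12, 76937269 to 76962201, minus strand), the partner that MYC and MXD proteins share, had 1623 counts in EVI1+18 and 1432 in EVI1-WT. Its level was 75.6 scaled CPM in EVI1+18 and 71.5 in EVI1-WT, a ratio of 1.06 whose interval included equality (0.985 to 1.14). Mlx (ENSMUSG00000017801, chromosome 11, 101087277 to 101092207, plus strand) had 55.5 scaled CPM in EVI1+18 and 58.4 in EVI1-WT, a ratio of 0.949 (0.875 to 1.03). Mlx did not differ beyond counting error. Max was within counting error under TMM and slightly above it under library totals, with a ratio of 1.11 (1.03 to 1.19), and under DESeq2 size factors, with 1.08 (1.001 to 1.16). Of the exon bases of Mlx, 385 (19.3%) overlap Psmc3ip on the opposite strand, and the strand setting of the counting is not given in the sources used here, so the level of Mlx is less certain.

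Mxd1 and Mxd4 were the members called 2-fold apart. Mxd1 (ENSMUSG00000001156, chromosome 6, 86647042 to 86669161, minus strand), a repressor induced as myeloid cells mature, had 1044 counts in EVI1+18 and 2365 in EVI1-WT. That is 48.7 scaled CPM in EVI1+18 and 118 in EVI1-WT, a 2.43-fold lower level in EVI1+18 (2.26 to 2.61). Mxd4 (ENSMUSG00000037235, chromosome 5, 34173883 to 34187720, minus strand), a repressor of the same family, had 915 counts in EVI1+18 and 2154 in EVI1-WT. Its level was 42.6 scaled CPM in EVI1+18 and 108 in EVI1-WT, 2.52-fold lower in EVI1+18 (2.33 to 2.73). Both lay well below their EVI1-WT level, and the ratio of Mxd1 to Mxd4 counts was 1.14 in EVI1+18 and 1.10 in EVI1-WT, apart by a factor whose interval included equality (0.933 to 1.16).

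Among all 13183 genes tested, 5.10% were called lower and 5.05% higher. Of the 10 members 9 were tested, 2 were called lower and 0 higher. With so few members, the count alone does not set them apart from that background. The median log2 ratio of the 9 was -0.19, against 0.01 over all genes tested. For Mxd1 5.80% of tested genes had a lower log2 ratio, and for Mxd4 5.45%.

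**Figure D2:**
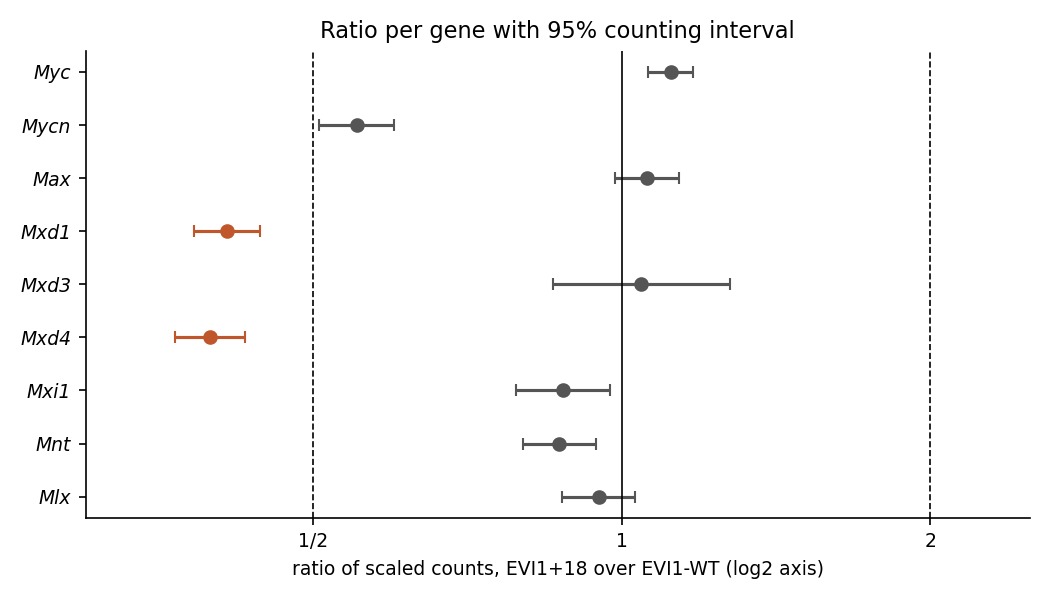
Ratio of scaled counts, EVI1+18 over EVI1-WT (horizontal log2 axis), for the 9 members tested, with 95% exact counting intervals; solid and dashed lines mark equality and 2-fold. The intervals of Mxd1 and Mxd4 lie wholly below the lower dashed line, that of Mycn (0.506 to 0.599) lies just above it, and the other 6 ratios lie between 0.869 and 1.12.

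The remaining repressors differed little. Mnt (ENSMUSG00000000282, chromosome 11, 74830920 to 74845725, plus strand), a broadly expressed antagonist of MYC, had 52.3 scaled CPM in EVI1+18 and 60.2 in EVI1-WT. It was 1.15-fold lower in EVI1+18 (1.06 to 1.25). Mxi1 (ENSMUSG00000025025, chromosome 19, 53310518 to 53375810, plus strand), also known as Mxd2, had 31.9 scaled CPM in EVI1+18 and 36.4 in EVI1-WT, and was 1.14-fold lower (1.03 to 1.27). Both were lower beyond counting error by a small amount, but under library totals the interval of Mxi1 included equality (0.825 to 1.02).

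Mxd3 (ENSMUSG00000021485, chromosome 13, 55325168 to 55329823, minus strand), the member of the family known for expression in dividing cells, had 217 counts in EVI1+18 and 194 in EVI1-WT. At 10.1 scaled CPM in EVI1+18 and 9.69 in EVI1-WT its ratio was 1.04, with an interval of 0.856 to 1.27 that included equality. It is the member with the fewest reads apart from Mycl. It shares 105 exon bases with Prelid1 on the opposite strand, which had 7298 counts in EVI1+18 and 7626 in EVI1-WT, so part of its reads may belong to that gene. No 50-base word of Myc, Mycn, Mycl, Mxd1 or Mnt transcripts (0) occurred in annotated transcripts of another gene. Of the Mxd4 exon bases, 514 overlap the antisense gene Gm42846, which had 0 counts in both libraries.

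The makeup of the repressor side differed between the cultures. Per kilobase, Mxd1 held 21.4% of the summed level of the MXD family and Mnt in EVI1+18 and 32.2% in EVI1-WT. Mxd4 held 15.6% in EVI1+18 and 24.5% in EVI1-WT. Mnt was the most abundant repressor in EVI1+18, with 35.2%, against 25.1% in EVI1-WT, where Mxd1 led. The lead of Mnt in EVI1+18 depended on gene length. Per kilobase of the longest transcript Mnt stood at 11.4 scaled CPM and Mxd1 at 10.4 in EVI1+18. On raw counts their shares in EVI1+18 had overlapping intervals, at 28.2% (26.8 to 29.6%) for Mnt and 26.2% (24.8 to 27.6%) for Mxd1. Counts of Mxd1 and Mxd4 together over those of Mxd3, Mxi1 and Mnt stood at 0.967 in EVI1+18 and 2.12 in EVI1-WT. This was 2.19-fold lower in EVI1+18 (2.02 to 2.38). The split sets the called repressors over the uncalled ones, so the lower ratio restates those calls and adds no support to them.

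Summed over Mxd1, Mxd3, Mxd4, Mxi1 and Mnt, repressor transcripts had 32.2 scaled CPM per kilobase in EVI1+18 and 51.8 in EVI1-WT. Set against the MYC paralogues, this gave a ratio of 0.460 in EVI1+18 and 0.700 in EVI1-WT. On counts the same ratio was 0.942 in EVI1+18 and 1.55 in EVI1-WT, 1.65-fold lower in EVI1+18 (1.55 to 1.74). Against Max it was 1.89-fold lower on counts (1.74 to 2.05). Transcripts of the MYC side thus outweighed those of the repressors per kilobase in both libraries, by more in EVI1+18. The size of the ratio depends on the gene lengths used, and protein was not measured.

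**Figure D3:**
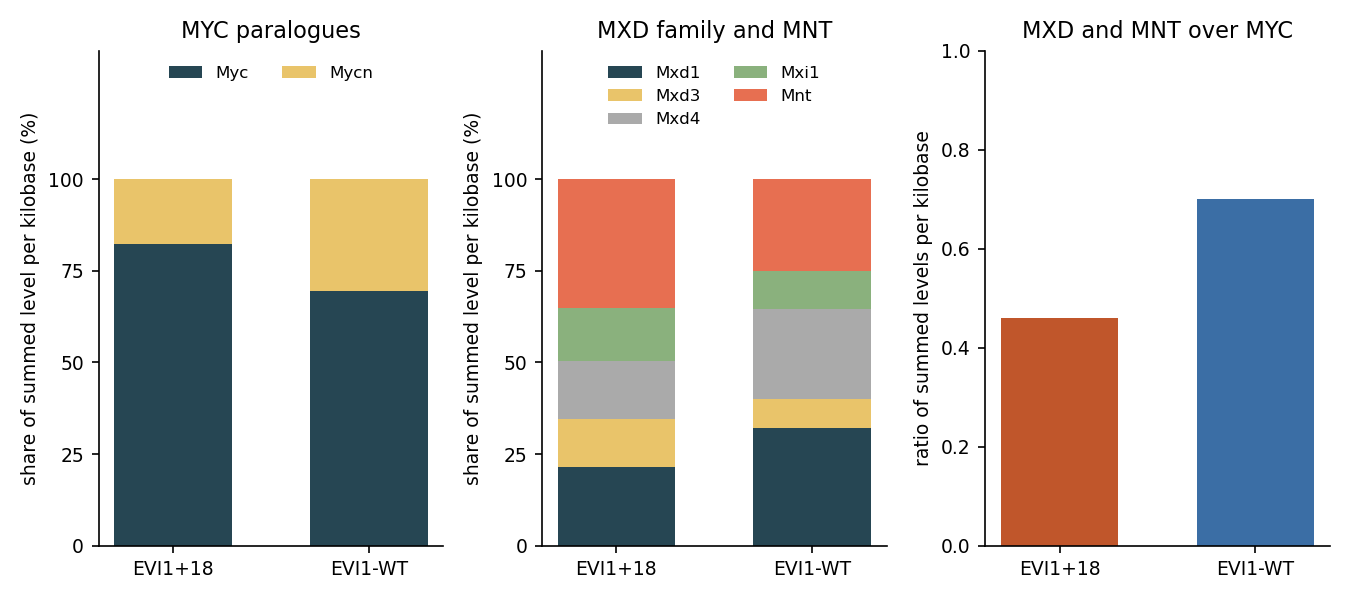
Left and centre, share of the summed level per kilobase (vertical axis, percent) held by each MYC paralogue and by each MXD gene or Mnt in EVI1+18 and EVI1-WT, with Mycl at 0 and not drawn; right, ratio of the summed repressor level to the summed MYC level, 1 library per bar. Myc holds 82.2% of the MYC side in EVI1+18 and 69.6% in EVI1-WT, and the ratio is 0.460 in EVI1+18 and 0.700 in EVI1-WT.

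The order of the levels per kilobase differed between the libraries. In EVI1+18 it ran Myc (57.5 scaled CPM per kilobase), Mlx (27.7), Max (21.02), Mycn (12.4), Mnt (11.3), Mxd1 (6.88), Mxd4 (5.03), Mxi1 (4.68), Mxd3 (4.27) and Mycl (0). Counting intervals overlapped between Mycn and Mnt, Mxd4 and Mxi1, and Mxi1 and Mxd3. In EVI1-WT it ran Myc (51.5 scaled CPM per kilobase), Mlx (29.2), Mycn (22.5), Max (19.9), Mxd1 (16.7), Mnt (13.0), Mxd4 (12.7), Mxi1 (5.33), Mxd3 (4.09) and Mycl (0), with overlap between Mnt and Mxd4. Mycn stood above Max in EVI1-WT and below it in EVI1+18, and Mxd1 stood above Mnt in EVI1-WT and below it in EVI1+18. Per kilobase of the longest transcript, Max was above Mlx and Mycn in both libraries, at 39.0 scaled CPM per kilobase in EVI1+18 and 36.8 in EVI1-WT, while Myc stayed at the top and Mxd1 kept its places relative to Mnt. By that length Mxd4 (23.2) stood above Mnt (13.1) in EVI1-WT.

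The summed levels of neutrophil, mast cell and basophil, and eosinophil markers were lower in EVI1+18, as were Mxd1, Mxd4 and Mycn. The 9 neutrophil markers summed to 855 scaled CPM in EVI1+18 and 1251 in EVI1-WT, ranging from 0.652 to 585 in EVI1+18 and from 2.05 to 539 in EVI1-WT, with none at 0. The most abundant of them, Mpo, was slightly higher in EVI1+18, at a ratio of 1.09 (1.06 to 1.115). The 8 mast cell and basophil markers summed to 423 scaled CPM in EVI1+18 and 4605 in EVI1-WT. Of these, Cpa3, the mast cell carboxypeptidase, was present in both, at 196 scaled CPM in EVI1+18 and 2409 in EVI1-WT. Mcpt4, with 7 counts in EVI1+18 and 3 in EVI1-WT, was below the filter. The 5 eosinophil markers summed to 148 scaled CPM in EVI1+18 and 849 in EVI1-WT. In the other direction, the 10 erythroid markers summed to 12819 scaled CPM in EVI1+18 and 1412 in EVI1-WT. The 6 megakaryocyte markers summed to 1096 scaled CPM in EVI1+18 and 454 in EVI1-WT, where Gp1bb and Tubb1 were at 0. Macrophage markers were mixed, with 3 of 6 tested called higher and 1 lower, a sum over all 8 of 1566 scaled CPM in EVI1+18 and 757 in EVI1-WT, and C1qa at 0 in both. The most abundant of them held 1214 scaled CPM of the EVI1+18 sum, so that sum rests largely on 1 gene. The part of these cell types in the values of the network was not tested.

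Of 10 other E-box proteins listed, 9 were tested, and 1 was called higher and 0 lower, beside 5.05% and 5.10% of all genes. The median log2 ratio was -0.07. Whole intervals lay below 1 for 5 of the 9 and above 1 for 2, beside 32.8% below and 33.4% above over all genes tested. Under library totals 4 of the 9 lay below, beside 27.7% of all genes. Intervals narrow with read depth, and these shares are not matched for it. Bhlhe41, a circadian repressor of the same helix-loop-helix class, had 279 counts in EVI1+18 and 41 in EVI1-WT, a 6.35-fold higher level (4.56 to 9.05). The most abundant by counts, the sterol regulators Srebf2 and Srebf1, had ratios of 0.840 and 0.949. Mlxip, the MondoA partner of MLX, was 1.40-fold lower (1.30 to 1.51), while the ChREBP gene Mlxipl, with 8 counts in EVI1+18 and 3 in EVI1-WT, was below the filter. Mga, which joins MAX to a polycomb-type complex, had a ratio of 0.993 (0.925 to 1.07). These 3 were named for their place in the network, after their values were seen.

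Cofactors through which the dimers act stayed short of a 2-fold call, but lists this short are not set apart by 0 calls. Of 16 MYC coactivators, 0 were called in either direction, beside 10.1% of all genes tested, with a median log2 ratio of -0.08. Whole intervals lay below 1 for 9 of the 16 and above 1 for 4, beside 32.8% below and 33.4% above over all genes. Under library totals 6 lay below, beside 27.7% of all genes. Intervals narrow with read depth, and the 16 genes had at least 32.0 scaled CPM in EVI1+18 and 23.6 in EVI1-WT. Tested genes start at 1 scaled CPM, so these shares are not matched for depth. The host cell factor Hcfc1 had a ratio of 0.986. Of 16 tested genes for SIN3 and NCOR corepressors, which MXD proteins recruit, 0 were called in either direction, beside the same 10.1%. Their median log2 ratio was 0.04. Rbbp4, a histone-binding subunit, had a ratio of 1.10 and the corepressor Ncor1 0.952. Sin3a, the direct partner of MXD proteins, had 77.8 scaled CPM in EVI1+18 and 72.4 in EVI1-WT.

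Of 13 regulators of MYC protein stability, 0 were called, beside 10.1% of all genes tested in either direction. The median log2 ratio was -0.03, or 0.04 under library totals. Whole intervals lay above 1 for 6 of the 13 and below 1 for 4, beside 33.4% above and 32.8% below over all genes tested. These shares are not matched for read depth. The kinase Pim1, which stabilises MYC, was 1.31-fold higher (1.27 to 1.35), with 10738 counts in EVI1+18 and 7636 in EVI1-WT. The ubiquitin ligase Huwe1 was 1.18-fold lower. Fbxw7, the ubiquitin ligase subunit that marks MYC for degradation, had 512 counts in EVI1+18 and 729 in EVI1-WT. It was 1.53-fold lower (1.36 to 1.71) and was named after its values were seen. Usp28, of the same list, was 1.58-fold lower (1.35 to 1.86). Transcript counts do not measure the stability of the protein.

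Genes that MYC is known to activate were slightly higher in part. Of 30 nucleolar and ribosome biogenesis targets, 0 were called 2-fold apart, beside 10.1% of all genes tested. Ratios lay above 1 for 25 of the 30, beside 6712 of the 13183 genes tested. Whole intervals lay above 1 for 24, beside 33.4% of all genes. Intervals narrow with read depth, and these targets had at least 31.7 scaled CPM in EVI1+18 and 28.1 in EVI1-WT. Tested genes start at 1 scaled CPM, so the interval shares are not matched for depth. The median log2 ratio of the 30 targets was 0.20. Under library totals, 25 of the 30 had whole intervals above 1, beside 39.1% of all genes. The nucleolar proteins Npm1 and Ncl, which had the most counts, had ratios of 1.07 (1.05 to 1.08) and 1.05 (1.04 to 1.07). Noc4l, at 1.62 (1.501 to 1.75), had the highest ratio of the list. Of 30 tested growth and metabolic targets, 1 was called higher and 0 lower, beside 5.05% and 5.10% of all genes, with a median of 0.09. The called gene was Shmt2, the mitochondrial serine hydroxymethyltransferase, which was 2.43-fold higher (2.34 to 2.52). The polyamine enzyme Odc1 was 1.70-fold higher (1.63 to 1.77). Glycolytic members lay the other way or near equality, with Pkm 1.33-fold lower, Hk2 1.96-fold lower (1.87 to 2.06) and Ldha at a ratio of 0.984 (0.967 to 1.0005). Of the same 30 genes, 15 had whole intervals above 1 and 10 below it, beside 32.8% of all genes tested for the downward direction.

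Most cell cycle targets were slightly higher, and genes that MYC is known to repress were mixed. Of 17 cell cycle targets, 0 were called higher and 1 lower, beside 5.05% and 5.10% of all genes. Their median log2 ratio was 0.19. Whole intervals lay above 1 for 11 of the 17 and below 1 for 3, beside 33.4% above and 32.8% below over all genes tested. These shares, too, are not matched for read depth. The called gene was Tert, the telomerase catalytic subunit, with 3 counts in EVI1+18 and 24 in EVI1-WT, 8.57-fold lower with a wide interval (2.60 to 44.5). The G1 kinase Cdk6 was 1.71-fold higher (1.66 to 1.76), and Cdk4 had a ratio of 1.04. Of 9 genes repressed by MYC, 1 was called higher and 1 lower, beside the same 5.05% and 5.10%, with a median of -0.07. The CDK inhibitor Cdkn1c was 12.8-fold higher (7.85 to 22.4), with 234 counts in EVI1+18 and 17 in EVI1-WT. The stress-responsive gene Ndrg1 had 51.5 scaled CPM in EVI1+18 and 157 in EVI1-WT, a 3.05-fold lower level (2.84 to 3.27). The CDK inhibitor Cdkn1a had a ratio of 0.951 and the granulocyte factor Cebpa was 1.43-fold lower (1.34 to 1.52), in the library whose summed neutrophil markers were also lower.

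Of 5 targets of MLX and MondoA, 0 were called, beside 10.1% of all genes tested in either direction. The median log2 ratio was -0.02, or 0.05 under library totals. The thioredoxin-binding protein Txnip, their best known target, was 1.54-fold higher (1.48 to 1.61), and its relative Arrdc4 was 1.56-fold higher (1.35 to 1.82). Hexokinase 2, Hk2, described above, was lower. The members of this short list thus lay on both sides of equality.

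**Figure D4:**
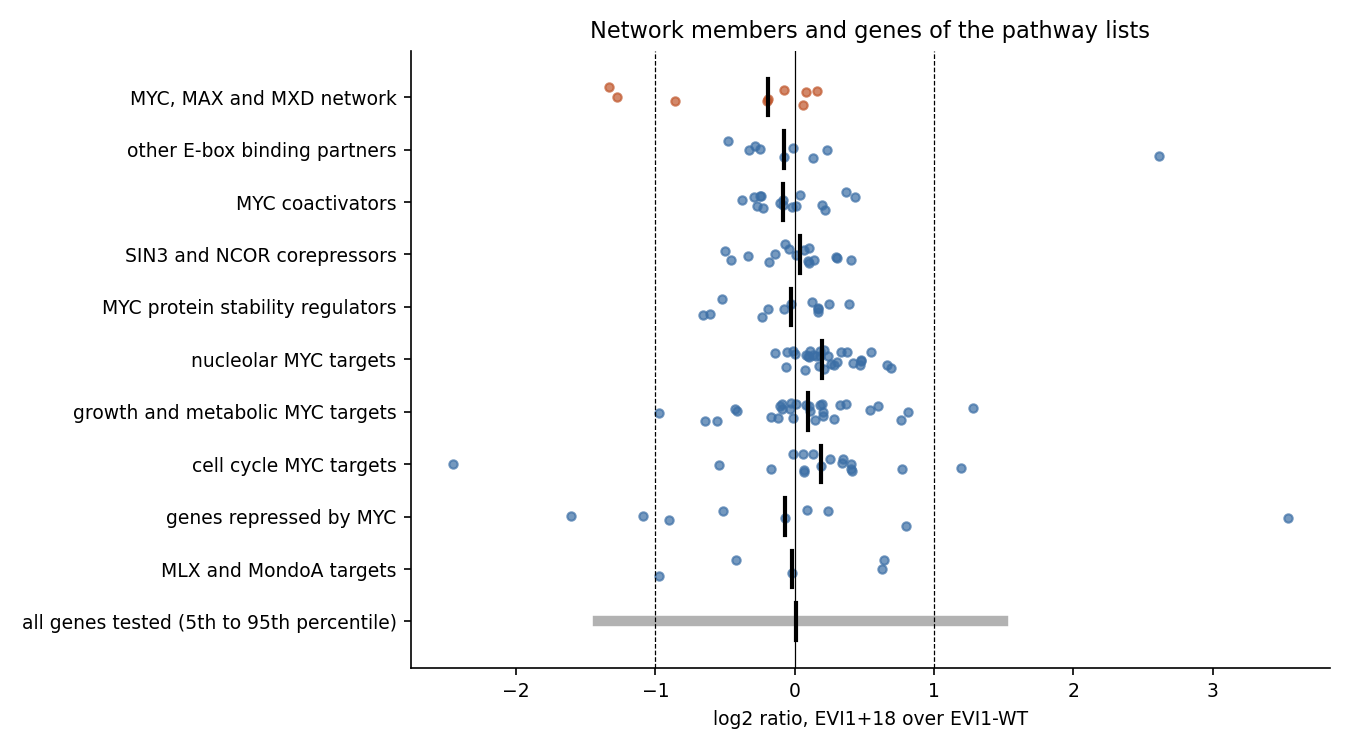
Log2 ratio, EVI1+18 over EVI1-WT (horizontal axis), for the 9 tested members of the network and the tested genes of 9 pathway lists, 1 point per gene, with a black bar at each median and a grey bar from percentile 5 to percentile 95 of all genes tested; dashed lines mark 2-fold. Most points lie within 2-fold, and the genes of 3 points far outside it are Cdkn1c and Bhlhe41, higher in EVI1+18, and Tert, lower in EVI1+18.

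Likeness to a member can only be read here from 1 ratio over 2 libraries, which many genes share. Among the 144 tested genes of the pathway lists, Nop2, Pim2 and Stub1 had the log2 ratios closest to the 0.16 of Myc, at 0.15, 0.17 and 0.17. Closest to the -0.86 of Mycn were Ndrg2, Hk2 and Usp28, at -0.91, -0.97 and -0.66.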

How the data were processed

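The deposited table gives read counts per Ensembl gene without normalization, 1 column per culture, which the authors deposited for 55487 gene IDs. The submitters' processing notes name GRCm38 as the build and list HISAT2 2.2.1, featureCounts, Subread, SAMtools and edgeR. Not given in the sources used here are their order and settings, the strand setting and the annotation release. Columns were assigned to vectors by name, and 0 columns were left unmapped. Symbols, coordinates and exon lengths come from GENCODE M21 (GRCm38), which matched 55141 IDs.

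Libraries were scaled with edgeR 4.0.16 (TMM, R 4.3.3). Ratios of EVI1+18 over EVI1-WT received 95% exact (Clopper-Pearson) counting intervals in scipy 1.17.1, and log2 ratios used a prior count of 2. Genes that reached 1 scaled CPM in either library count as tested. With 1 library a group no test across replicates exists. Intervals and floors cover counting error only, since no molecular identifiers mark independent molecules. The calling rule was also run on simulated counts that held counting error only. That run cannot show how far cultures of the same vector differ. Alternatives were other scalings (including DESeq2 1.42.0), filters, folds, priors and gene lengths.

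The members and lists were chosen with earlier results of these data known. Named are all members, the called genes and the 2 genes with most counts of each pathway list, and the 3 genes closest in log2 ratio to Myc and to Mycn, except that some genes are not reported here. Noc4l, Odc1, Arrdc4, Fbxw7, Sin3a, Pvt1, Mga, Mlxip and Mlxipl were added after the values were seen.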

Additional observations from a re-analysis of the deposited data

How the results depend on the processing

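With 1 library per group, leaving out a library leaves no comparison, and no value here has a replicate check. No paired analysis was possible because each group has 1 library. Mxd1 and Mxd4 were the members called lower under library totals, DESeq2 size factors, upper-quartile scaling, no filter, a filter of 5 scaled CPM and a point ratio past 2-fold, and Mycn joined them at 1.5-fold; no member (0) was called higher under any of these. The 9 tested members kept the sign of their log2 ratio under the scalings and the prior count tried. Among them Mxd1 ranged from -1.28 to -1.21, Mxd4 from -1.33 to -1.27 and Mycn from -0.86 to -0.79. Gene length changed the within-library values. On raw counts the Myc share of the paralogues was 79.2% in EVI1+18 and 65.3% in EVI1-WT. The ratio of MXD and MNT over MYC was 0.526 in EVI1+18 and 0.850 in EVI1-WT per kilobase of the longest transcript, and 0.942 in EVI1+18 and 1.55 in EVI1-WT on raw counts, lower in EVI1+18 each time. Scaling by library totals moved the median log2 ratio to -0.010 for the other E-box proteins and to -0.0081 for the genes repressed by MYC. With the filter at 5 scaled CPM, which Tert does not pass, 0 cell cycle targets were called lower. Of 148 alternative values, 139 stayed within the band set for them and 9 moved further. The band was 1.5 times the count for counts of calls and was otherwise drawn from counting intervals. For a list median it ran from the median lower limit to the median upper limit of its genes. That is the width for a typical single gene and not the counting error of a median. In that tally a change of sign was counted only for the called members, Mxd1 and Mxd4, and occurred in 0. Their log2 ratios lay far from 0 beside the shifts between scalings, so this 0 is no check. Medians of uncalled lists near 0 changed sign in 3 cases, to 0.038 for the stability regulators and 0.048 for the MLX and MondoA targets under library totals, and to 0.0077 for the MLX and MondoA targets under DESeq2 size factors. Depth limits Mycl, at 0 counts, and leaves a wide interval for Tert.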
